A study of Mus musculus with 5 samples.

Results

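The 10 genes described here are the core genes of the osteoclast and of macrophage fusion: the receptors Tnfrsf11a, Oscar and Calcr, the transcription factor Nfatc1, the fusion genes Dcstamp, Ocstamp and Atp6v0d2, the integrin subunit Itgb3 and the resorption enzymes Acp5 and Ctsk. They were chosen by name for what they are known to do, with earlier results of these arrays known. Every array probe whose transcript carried one of these symbols was taken. This gave 14 probes for 10 genes, out of 55681 probes and 21154 named genes on the array. Each of 4 genes (Nfatc1, Acp5, Itgb3 and Atp6v0d2) had 2 probes and the other 6 had 1. On the 5 arrays 13 of the 14 probes, covering 9 of the 10 genes, were well above background on every array and were tested. The exception was the probe of Calcr.

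RNA came from peritoneal macrophages of mice aged 8 weeks, collected by lavage and plated overnight, after which only the attached cells were kept. The c-JunΔLysM group was 2 mice (1 and 9) of the genotype cJunfl/fl LysMCre-/+, in which Cre recombinase is made from the Lyz2 (LysM) locus in myeloid cells, and the wild-type group was 3 littermates (5, 11 and 14). All were on a 129/C57Bl6 background and of either sex. The deletion is called c-JunΔMx, after another Cre line, in the source names and in the deposited group means, and the labels do not settle which is meant. Cre from Lyz2 is known to act mainly in macrophages, monocytes and granulocytes. Whether other cells in the preparation kept intact Jun was not tested.

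Osteoclasts are multinucleated bone-resorbing cells that form when precursors of the monocyte and macrophage lineage fuse. The cytokine RANKL binds RANK on the precursor, and with a second signal through immunoreceptor adaptors it activates AP-1, the dimers of Jun and Fos proteins, and then NFATc1, which switches on the genes of fusion and resorption. Peritoneal macrophages are not osteoclasts, but they express several of these genes and can fuse into giant cells.

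Each value below is the log2 of a spot's signal over its array's 75th percentile, so that 0 is that percentile, and each difference is c-JunΔLysM minus wild-type in log2. Levels are compared between arrays for 1 probe and not between probes. Between 53.0% and 60.6% of spots were well above background on an array, and none was saturated. Jun itself read 2.76 and 2.71 in c-JunΔLysM, against 3.21, 3.75 and 3.17 in wild-type, a difference of -0.64 (limma, adjusted p = 0.384); where its probe lies relative to the floxed part is not given in the sources used here. Lyz2, the locus that carries Cre, read 4.46 and 8.52 in c-JunΔLysM, against 8.70, 8.76 and 9.18 in wild-type, so c-JunΔLysM 1 stood apart. Wild-type 11 was the single array with Ddx3y, a Y-linked gene, well above background, and with low Xist, -4.53, against 0.57 and 0.74 in c-JunΔLysM and 0.20 and -0.04 in the other wild-type arrays. Slide 1 held c-JunΔLysM 1 and wild-type 5, and slide 2 held c-JunΔLysM 9 and wild-type 11 and 14.

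Over the 9 measured genes there was no common direction. Taking the brightest probe of each, Nfatc1, Acp5 and Oscar were higher in both c-JunΔLysM arrays than in all 3 wild-type arrays, Dcstamp, Ocstamp and Tnfrsf11a were lower in both than in all 3, and Ctsk, Itgb3 and Atp6v0d2 overlapped. Groups that do not overlap were common on these arrays: 33.8% of the 32565 probes tested, 13.3% higher and 20.5% lower in c-JunΔLysM. Over all 13 member probes 6 were separated upwards and 4 downwards. Of these, 1 was at least 2-fold higher (Nfatc1) and 3 at least 2-fold lower (Dcstamp, Ocstamp and 1 of Itgb3), beside 3.84% and 4.02% of all probes. No member probe passed limma at an adjusted p of 0.05, and neither did any other probe (0% of those tested), with adjusted p of the member probes between 0.223 and 0.877. At an unadjusted p under 0.05 in limma there were 4 member probes higher and 2 lower in c-JunΔLysM, where 5.68% of all probes were higher and 6.67% lower (12.4% in all). Both probes of Nfatc1 were among the 4. By the brightest probe of each gene, 2 genes were higher and 2 lower. The median difference of the 9 genes was 0.17, beside -0.09 over all probes tested. Since the members were picked with results of these arrays known, these counts are a description.

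**Figure D1:**
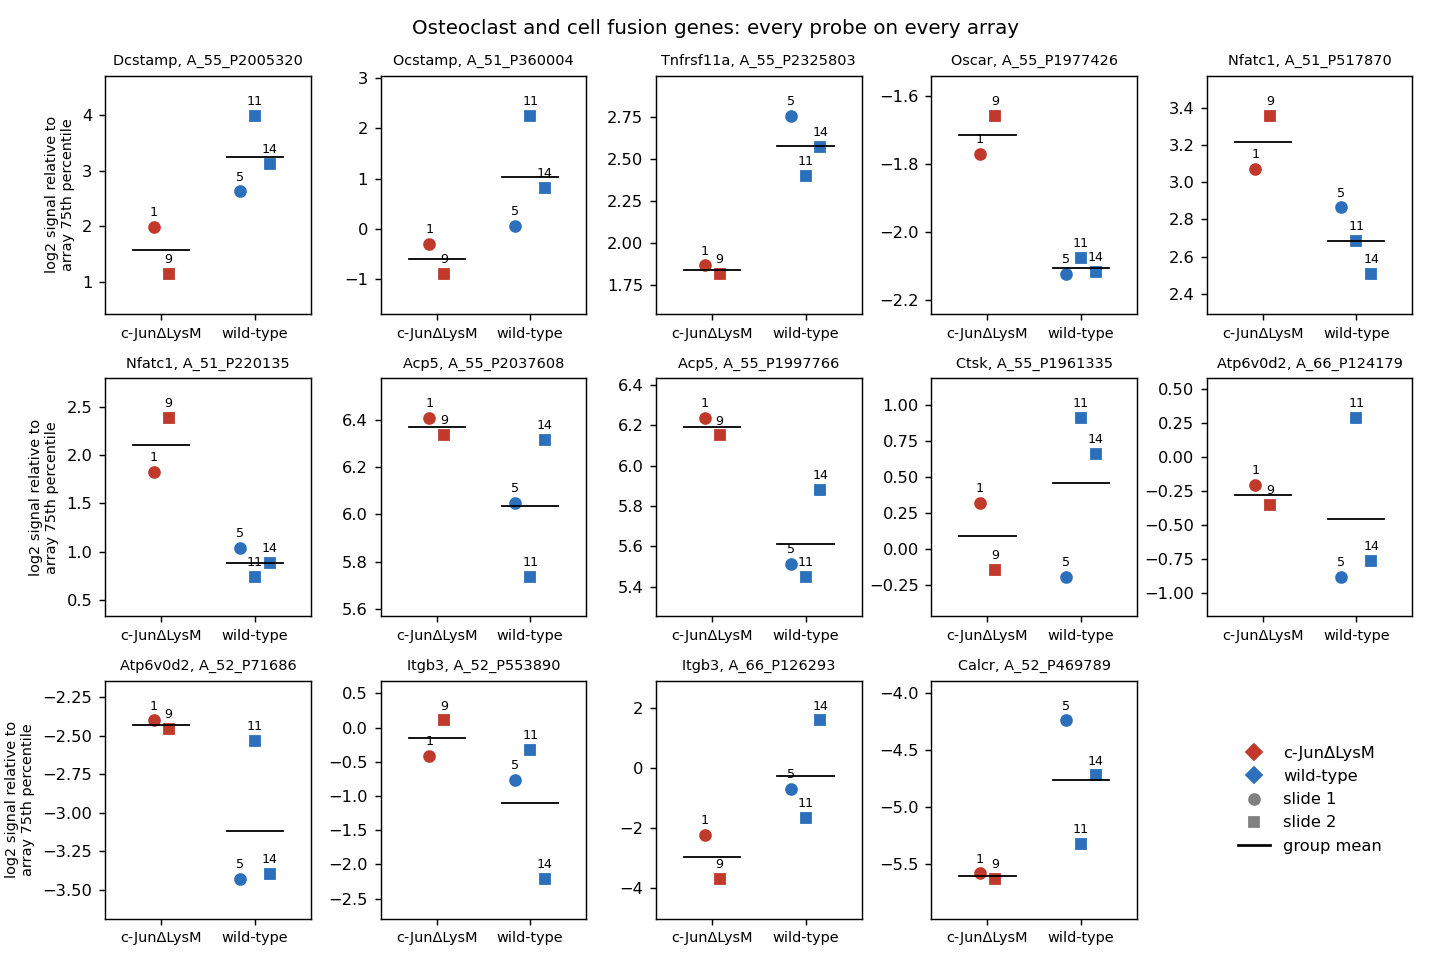
Log2 signal relative to the array's 75th percentile (vertical axes) for each probe of the 10 genes on the 2 c-JunΔLysM and 3 wild-type arrays, with group means as bars. Dcstamp, Ocstamp and Tnfrsf11a sit lower in both c-JunΔLysM arrays, the 2 probes of Nfatc1 and of Acp5 sit higher, and the 2 probes of Itgb3 point opposite ways.

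Tnfrsf11a encodes RANK, the receptor for RANKL, and its probe (A_55_P2325803) was lower in c-JunΔLysM. It read 1.87 and 1.81 in c-JunΔLysM, against 2.76, 2.40 and 2.57 in wild-type. The arrays of each group lay close together and the groups were separated by 0.53. The means were 1.84 ± 0.04 (SD, n = 2) in c-JunΔLysM and 2.58 ± 0.18 (SD, n = 3) in wild-type, a difference of -0.74 (SE 0.17, 95% interval -1.17 to -0.31), or 1.67-fold lower. Its limma p of 0.00730 became 0.255 after adjustment over all probes. The difference had a similar size on both slides, -0.89 within slide 1 and -0.67 within slide 2. In bulk RNA of this kind, fewer cells of a type and less RNA per cell cannot be told apart, here or for the genes below.

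Oscar encodes an immunoglobulin-like receptor that binds collagen and signals through the adaptor FcRγ, one of the co-stimulatory inputs to osteoclast formation. Its probe (A_55_P1977426) read -1.77 and -1.66 in c-JunΔLysM, against -2.12, -2.08 and -2.12 in wild-type. Both c-JunΔLysM arrays were above all wild-type arrays, and the 3 wild-type values were almost equal, with an SD of 0.03. The difference was small, 0.39 (SE 0.13, 95% interval 0.05 to 0.74), or 1.31-fold higher, with an adjusted p of 0.363 in limma. It was 0.36 within slide 1 and 0.44 within slide 2.

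Calcr, the calcitonin receptor, marks mature osteoclasts and lets calcitonin halt resorption. Its probe (A_52_P469789) read -5.59 and -5.64 in c-JunΔLysM, against -4.24, -5.33 and -4.73 in wild-type, and was well above background on wild-type 5 alone. It was therefore not tested, and no fold is given, since 4 of the 5 values were not well above background.

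Nfatc1 encodes the transcription factor that osteoclast formation depends on, and it binds DNA together with AP-1. Its brighter probe (A_51_P517870) read 3.07 and 3.36 in c-JunΔLysM, against 2.87, 2.68 and 2.50 in wild-type, a difference of 0.53 (SE 0.19, 95% interval 0.05 to 1.01; limma, adjusted p = 0.376). The dimmer probe (A_51_P220135) read 1.82 and 2.38 in c-JunΔLysM, against 1.04, 0.74 and 0.89 in wild-type. Both probes were higher in both c-JunΔLysM arrays, and the dimmer one was separated by more, 0.79. Its means were 2.10 ± 0.40 (SD, n = 2) in c-JunΔLysM and 0.89 ± 0.15 (SD, n = 3) in wild-type, a difference of 1.21 (SE 0.22, 95% interval 0.63 to 1.80), or 2.32-fold higher. This was the smallest p of the members, 0.00327, at rank 473 of all probes tested, and 0.223 after adjustment in limma. The authors' deposited table gives the same difference, 1.21, for this probe, but from the same arrays, so it is not separate evidence. The 2 probes name different transcripts of the gene, and what each would detect besides was not tested.

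The slides gave unequal sizes for both Nfatc1 probes. Within slide 1 the brighter probe differed by 0.21 and the dimmer by 0.79, and within slide 2 by 0.77 and 1.57. Nfatc1 is also used by lymphocytes, and B cell markers were higher in c-JunΔLysM. All 10 of 10 markers (among them Cd79a and Ms4a1) were above every wild-type array, as were 13.3% of all probes tested. Their summed signal, in units of the 75th percentile, was 319 and 466 in c-JunΔLysM, against 93.8, 72.6 and 47.9 in wild-type. The summed signal of 8 T and NK cell markers was 22.5 and 31.0 in c-JunΔLysM, against 11.7, 44.1 and 12.2 in wild-type. Both marker sums were present on all arrays, and their part in the Nfatc1 values was not tested.

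Dcstamp encodes the dendritic cell-specific transmembrane protein, a multipass membrane protein without which osteoclast precursors do not fuse. Its probe (A_55_P2005320) read 2.00 and 1.14 in c-JunΔLysM, against 2.63, 3.99 and 3.12 in wild-type. The groups were separated by 0.63, and wild-type 11 was highest. The means were 1.57 ± 0.60 (SD, n = 2) in c-JunΔLysM and 3.24 ± 0.69 (SD, n = 3) in wild-type, a difference of -1.68 (SE 0.49, 95% interval -2.96 to -0.39), or 3.20-fold lower. The limma p was 0.0205 before and 0.321 after adjustment. The authors' deposited table holds this probe too, with a difference of -1.68 from the same arrays.

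Ocstamp, osteoclast stimulatory transmembrane protein, is the partner gene of Dcstamp in fusion and was lower as well, with a wider spread. Its probe (A_51_P360004) read -0.30 and -0.90 in c-JunΔLysM, against 0.06, 2.25 and 0.81 in wild-type. The groups were separated by 0.36, a smaller gap than the SD of wild-type, 1.12. The difference was -1.64 (SE 0.69, 95% interval -3.44 to 0.15), or 3.12-fold lower, with an adjusted p of 0.425 in limma. For both genes the size depended on the slide: within slide 1 it was -0.63 for Dcstamp and -0.36 for Ocstamp, and within slide 2 -2.41 and -2.43. Without wild-type 11 it was -1.30 for Dcstamp and -1.04 for Ocstamp.

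Dcstamp and Ocstamp had nearly the same profile over the 5 arrays. After each gene was centred on its own mean, they differed by a root mean square of 0.28 log2 units, so that among 12796 named genes well above background on all arrays Dcstamp was the 11th closest to Ocstamp and Ocstamp the 25th closest to Dcstamp. The closest to Dcstamp were Hbegf, which encodes the growth factor HB-EGF, at 0.139 and Mrc1, the mannose receptor, at 0.157. The closest to Ocstamp were Msln, which encodes mesothelin, at 0.0626 and Cryab, which encodes the small heat shock protein αB-crystallin, at 0.137. Msln read -2.83 and -3.46 in c-JunΔLysM, against -2.39, -0.37 and -1.78 in wild-type. Mrc1 read 1.49 and 1.00 in c-JunΔLysM, against 2.55, 3.81 and 2.78 in wild-type. These arrays share the 2 groups and 1 highest array, wild-type 11, and 5 arrays are too few for more than a description. Of the other members Ctsk and Tnfrsf11a came next, at 0.679 and 0.760 from Dcstamp.

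**Figure D2:**
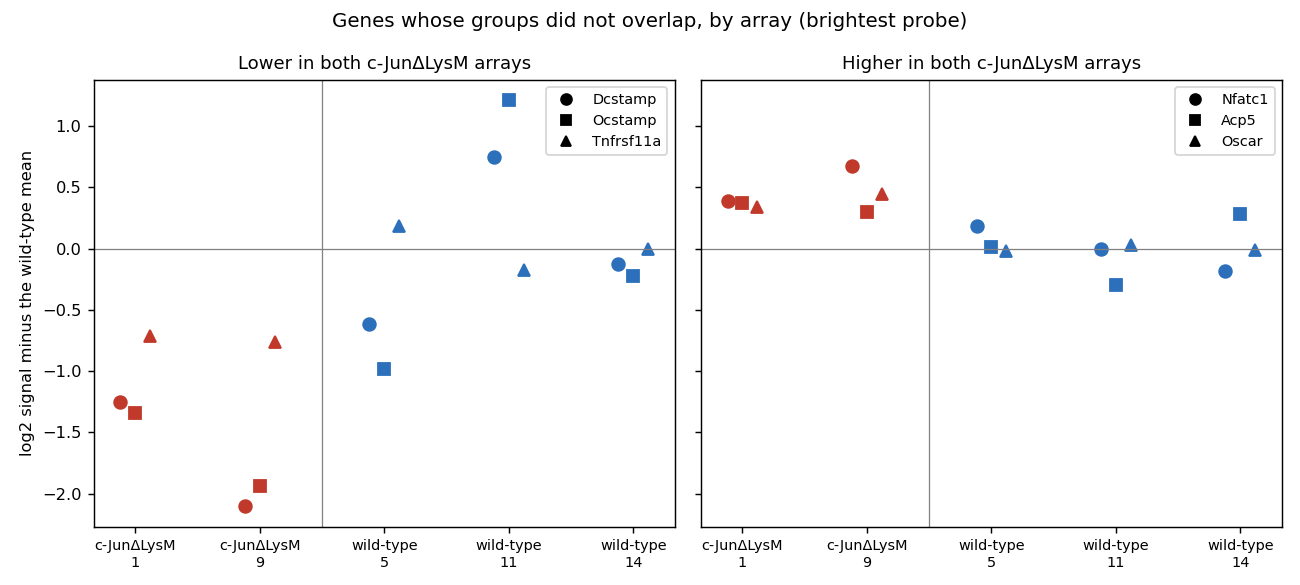
Log2 signal minus the wild-type mean (vertical axis) on each array for the genes whose groups did not overlap, with a marker shape per gene and a colour per group. On the left, Dcstamp and Ocstamp follow each other over the arrays, both highest on wild-type 11, while Tnfrsf11a varies little within a group; on the right, Nfatc1, Acp5 and Oscar lie above 0 in both c-JunΔLysM arrays.

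Mesothelial and stromal markers lay lower in c-JunΔLysM along with Dcstamp and Ocstamp. Of 11 measured mesothelial and stromal markers, a list that includes Msln, 10 had a lower mean in c-JunΔLysM, where 61.3% of all probes tested had one. The groups were separated downwards for 5 of them (20.5% of all probes tested), and 1 was lower at an unadjusted p under 0.05 (6.67%). Their summed signal was 2.80 and 4.19 in c-JunΔLysM, against 4.40, 10.6 and 8.16 in wild-type. The stromal markers Pdgfra and Lum were not above background on any array. The 8 measured markers of monocyte-derived macrophages and dendritic cells summed to 81.7 and 85.8 in c-JunΔLysM, against 77.7, 151 and 80.3 in wild-type. These sums overlapped, with wild-type 11 the highest array, as it was for Dcstamp and Ocstamp. The brightest probe, that of Mgl2, weighed most in them. Gene by gene, 1 was separated upwards, Irf4 (1.19), and 2 downwards, Itgax (-1.04) and Zbtb46 (-0.63), beside 13.3% and 20.5% of all probes tested. Markers of large peritoneal macrophages had a higher mean in c-JunΔLysM for 9 of 10 genes (38.7% of all probes tested). Of these, 5 were separated upwards (13.3% of all probes tested), while Gata6 and Timd4 overlapped. The 10 markers summed to 439 and 533 in c-JunΔLysM, against 351, 165 and 216 in wild-type. The 7 measured pan-macrophage markers, Lyz2 among them, summed to 551 and 824 in c-JunΔLysM, against 1001, 805 and 1130 in wild-type. Without Lyz2, a sum added after seeing the data, they summed to 529 and 458 in c-JunΔLysM, against 585, 371 and 551 in wild-type. These sums overlapped, but single markers moved both ways. Itgam (0.78) and Cd68 (0.23) were separated upwards, Mertk (-0.55), Fcgr1 (-0.63) and Lyz2 (-2.39) downwards, and Adgre1 and Cd14 overlapped. The part of these cells in the Dcstamp and Ocstamp values was not tested.

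Atp6v0d2 encodes the d2 subunit of the vacuolar proton pump and takes part in precursor fusion. Its brighter probe (A_66_P124179) read -0.21 and -0.35 in c-JunΔLysM, against -0.88, 0.28 and -0.77 in wild-type, so that wild-type 11 lay above and the other wild-type arrays below c-JunΔLysM. The difference was 0.17 (SE 0.40, 95% interval -0.87 to 1.21; limma, adjusted p = 0.877). The dimmer probe (A_52_P71686) read -2.40 and -2.45 in c-JunΔLysM, against -3.43, -2.53 and -3.40 in wild-type. Its groups were separated by only 0.08, with a difference of 0.69 (SE 0.33; limma, adjusted p = 0.451). On neither probe was the mean of c-JunΔLysM below that of wild-type. Without wild-type 11 the brighter probe differed by 0.54 and its groups did not overlap, and without wild-type 5 and without wild-type 14 it differed by -0.0404 and 0.02.

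Itgb3 encodes the β3 integrin, which with the αv subunit forms the vitronectin receptor of the osteoclast sealing zone and with αIIb the fibrinogen receptor of platelets. Its 2 probes disagreed. The brighter (A_52_P553890) read -0.41 and 0.10 in c-JunΔLysM, against -0.77, -0.33 and -2.21 in wild-type, a difference of 0.95 (SE 0.61, 95% interval -0.64 to 2.54). The dimmer (A_66_P126293) read -2.23 and -3.71 in c-JunΔLysM, against -0.71, -1.65 and 1.58 in wild-type, a difference of -2.71 (SE 1.08, 95% interval -5.51 to 0.09). The brighter overlapped and the dimmer did not, and neither passed limma, at adjusted p of 0.551 and 0.411. Wild-type 14 was lowest on the brighter probe and highest on the dimmer one. The brighter probe differed by 0.40 without wild-type 14, and its groups no longer overlapped without wild-type 11 (1.34) or without c-JunΔLysM 1 (1.21). The dimmer differed by -1.79 without wild-type 14. A direction for Itgb3 therefore cannot be given. Platelet markers summed to 1.82 and 0.616 in c-JunΔLysM, against 1.48, 1.78 and 2.18 in wild-type, with Gp9 not above background on any array.

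Acp5 encodes tartrate-resistant acid phosphatase, the classical stain of osteoclasts, which macrophages also make. The brighter probe (A_55_P2037608) read 6.41 and 6.34 in c-JunΔLysM, against 6.05, 5.74 and 6.32 in wild-type, a difference of 0.34 (SE 0.21, 95% interval -0.22 to 0.89). The other probe (A_55_P1997766) read 6.24 and 6.15 in c-JunΔLysM, against 5.51, 5.45 and 5.88 in wild-type, a difference of 0.58 (SE 0.19, 95% interval 0.09 to 1.07). Both probes were higher in both c-JunΔLysM arrays, the brighter by a gap of 0.02 and the other by 0.27. Adjusted p in limma was 0.546 and 0.356. Without wild-type 11 the brighter probe differed by 0.19.

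Ctsk encodes cathepsin K, the protease with which osteoclasts degrade bone collagen. Its probe (A_55_P1961335) read 0.32 and -0.15 in c-JunΔLysM, against -0.19, 0.91 and 0.66 in wild-type. The groups overlapped, with wild-type 5 the lowest of all arrays. The difference was -0.37 (SE 0.39, 95% interval -1.38 to 0.64; limma, adjusted p = 0.704), and the slides gave opposite signs, 0.52 within slide 1 and -0.94 within slide 2. Leaving out 1 array moved it to -0.70 without wild-type 5, where the groups did not overlap, to -0.61 without c-JunΔLysM 1, to -0.15 without wild-type 11 and to -0.14 without c-JunΔLysM 9.

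**Figure D3:**
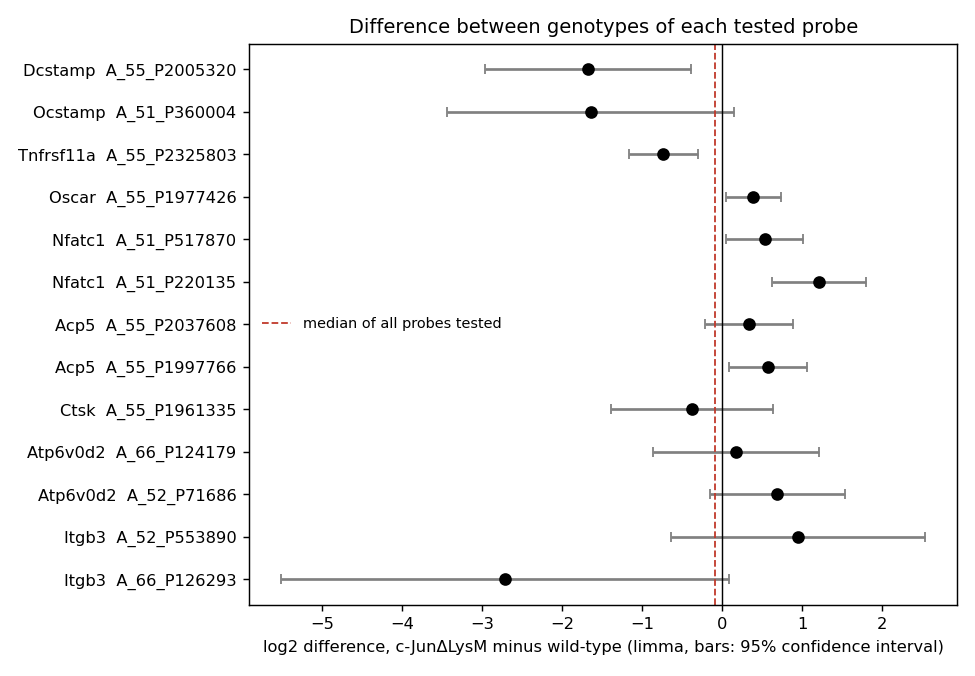
Difference c-JunΔLysM minus wild-type in log2 (horizontal axis) for the 13 tested probes, with the 95% interval of the limma fit as a bar and the median of all probes tested as a dashed line. The intervals of Tnfrsf11a, Dcstamp, Oscar, both Nfatc1 probes and 1 Acp5 probe do not cross 0, before any adjustment over probes.

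Promoters were read for the members that RefSeq's GRCm38.p6 table matched, 5 of 10 genes (Tnfrsf11a, Oscar, Calcr, Acp5 and Ctsk), with 8 start sites in all. Dcstamp, Ocstamp, Nfatc1, Itgb3 and Atp6v0d2 had no window and were not searched, so the motif counts below do not cover them. Each window ran from 250 bases before to 50 bases after the start and is written 5′ to 3′ on the gene's strand. Because AP-1, NFAT and PU.1 are the factors known to act at osteoclast genes, both strands were searched for the letters TGACTCA (AP-1), TGACGTCA (CRE, which Jun also binds as a dimer with ATF proteins), TGGAAA (NFAT), GAGGAA (PU.1) and CACGTG (the E-box of MITF). Of the tested genes separated downwards, Tnfrsf11a alone had a window. That window and windows of Oscar and Acp5, which were higher, stand below with matches in capitals.
Tnfrsf11a chr1:105780473-105780772, plus strand: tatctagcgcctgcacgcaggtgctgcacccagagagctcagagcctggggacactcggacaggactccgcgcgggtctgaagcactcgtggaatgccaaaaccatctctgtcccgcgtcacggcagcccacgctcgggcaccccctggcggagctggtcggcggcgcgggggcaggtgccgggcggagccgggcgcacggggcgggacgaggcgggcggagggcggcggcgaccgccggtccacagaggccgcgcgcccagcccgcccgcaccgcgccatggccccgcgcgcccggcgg
Oscar chr7:3616108-3616407, minus strand: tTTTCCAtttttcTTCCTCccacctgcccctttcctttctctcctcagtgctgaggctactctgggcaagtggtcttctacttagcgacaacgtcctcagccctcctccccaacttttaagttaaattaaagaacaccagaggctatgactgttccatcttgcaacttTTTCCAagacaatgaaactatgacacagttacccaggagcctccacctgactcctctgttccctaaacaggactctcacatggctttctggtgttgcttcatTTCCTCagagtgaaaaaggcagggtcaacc
Acp5 chr9:22130549-22130848, minus strand: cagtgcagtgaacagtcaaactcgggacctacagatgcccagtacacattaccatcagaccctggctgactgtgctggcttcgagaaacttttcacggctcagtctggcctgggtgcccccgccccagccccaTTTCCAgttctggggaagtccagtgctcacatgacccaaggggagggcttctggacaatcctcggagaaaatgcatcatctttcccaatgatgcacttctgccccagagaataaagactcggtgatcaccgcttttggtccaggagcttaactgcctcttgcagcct

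In these windows the capitals TTTCCA are the NFAT letters and TTCCTC the PU.1 letters, each on the opposite strand, and no matches overlap. Oscar held NFAT letters at -249 and -82 and PU.1 letters at -237 and 20, counted in bases from the start site. Acp5 held NFAT letters at -117 in 1 of its 3 windows, and the Tnfrsf11a window held none of the 5 motifs. Ctsk, which overlapped between groups, held NFAT letters at 0 and PU.1 letters at -233 and -58. The AP-1 letters were in 0 of the 8 windows and in 5.2% of all 32851 windows in the table, and the CRE letters in 0 and in 1.79%. The NFAT letters were in 3 of 8 windows and in 21.4% of all, the PU.1 letters in 2 of 8 and in 28.3%, and the E-box in 0 of 8 and in 7.15%. A match describes letters in a window and does not mark a bound site, and a missing match says only that these letters are not in this window.

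The genes around the members were read from 6 lists, each gene by its brightest probe alone. None of these probes passed limma after adjustment. Counts below are of genes at an unadjusted p under 0.05 (5.68% of all probes higher and 6.67% lower). Beside them stands the number whose groups did not overlap. Of all probes tested, 33.8% did not overlap, 13.3% higher and 20.5% lower in c-JunΔLysM. Among 19 measured genes of RANK signalling and AP-1, 0 were higher and 1 was lower, 6 did not overlap (2 higher, 4 lower), and the median difference was -0.21 (-0.13 without c-JunΔLysM 9). The 1 gene was Jdp2, which encodes an AP-1 family dimerisation protein needed for osteoclast formation in mice, with 0.99 and 0.41 in c-JunΔLysM, against 1.47, 1.20 and 1.80 in wild-type (difference -0.79, adjusted p = 0.374 in limma). Fos, the Jun partner in AP-1, read 0.73 and -0.04 in c-JunΔLysM, against 1.67, 0.70 and 2.02 in wild-type, and overlapped (difference -1.12). Fosl1, another Fos family gene, differed by -1.23 but was above background on 1 of the 2 c-JunΔLysM arrays.

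Traf6, the adaptor that carries the RANK signal, differed by -0.14. The kinase adaptor Tab2 differed by -0.33 and Cyld, a deubiquitinase that restrains the pathway, by 0.26, with separated groups in both. The ligand gene Tnfsf11 (RANKL) was above background on 1 array of each group, c-JunΔLysM and wild-type, and overlapped. The decoy receptor gene Tnfrsf11b was above background on 1 of the 5 arrays, a wild-type one, and was not tested.

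Among the 12 genes of immunoreceptor (ITAM) co-stimulation, 1 was higher and 1 lower, 5 were separated upwards and 4 downwards, and the median difference was 0.05, with -0.07 within slide 1 and 0.14 within slide 2, and 0.00892 to 0.0860 when 1 array was left out. Blnk, an adaptor below ITAM receptors that B cells use as well, was 1.26 higher, at 6.29 and 6.55 in c-JunΔLysM, against 5.31, 5.31 and 4.87 in wild-type (limma, adjusted p = 0.217). Btk, a kinase of the same step, was 0.35 higher with separated groups. Syk (0.26), Plcg2 (0.26) and Tec (0.21) were separated upwards too. The B cell markers given above were higher on the same arrays, and their part in the values of these 5 genes was not tested. Vav3, a guanine nucleotide exchange factor of the osteoclast cytoskeleton, read 0.56 and 0.61 in c-JunΔLysM, against 1.15, 1.09 and 1.11 in wild-type (difference -0.53, adjusted p = 0.274 in limma). The adaptor Lcp2 differed by -0.48 and Fcer1g, which encodes the FcRγ chain that Oscar signals through, by -0.53, both separated. Tyrobp, which encodes the adaptor DAP12, and its receptor gene Trem2 differed by -0.09 and 0.03 and overlapped.

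Among 10 transcription factors of the osteoclast, 1 was higher and 1 lower, with a median of -0.27. That median was 0.05 within slide 1 and -0.41 within slide 2, and leaving out 1 array gave -0.11 without c-JunΔLysM 9 and -0.41 without c-JunΔLysM 1. Nfatc3, a relative of Nfatc1, read 1.07 and 1.19 in c-JunΔLysM, against 0.66, 0.65 and 0.68 in wild-type (difference 0.47, adjusted p = 0.307 in limma). Spi1, which encodes PU.1, read 1.60 and 1.34 in c-JunΔLysM, against 1.93, 1.85 and 2.10 in wild-type (difference -0.49, adjusted p = 0.366). Both were separated, in opposite directions. Mitf differed by -0.28, Myc by 0.72 and the coactivator gene Ppargc1b by -0.56, all with overlap. Of the repressors of osteoclast formation 8 of 10 were measured, none was separated (0 of 8), and the median was -0.04, with -0.23 within slide 1, -0.11 within slide 2 and -0.15 to -0.06 when 1 array was left out. Irf8 differed by -0.02, Bcl6 by 0.12, Rbpj by -0.40 and Rcan1, an inhibitor of the calcineurin that activates NFAT, by -0.45.

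Of the 20 genes of acid and matrix resorption, 17 had a lower mean in c-JunΔLysM and 3 a higher one, where 61.3% of all probes tested had a lower one, with 0 higher and 2 lower at an unadjusted p under 0.05 and 6 separated downwards against 2 upwards. The median difference was -0.35, -0.08 within slide 1 and -0.59 within slide 2, and it was -0.11 without c-JunΔLysM 9 and -0.57 without c-JunΔLysM 1. The 2 genes were Src, the kinase needed for the ruffled border, at -3.85 and -4.13 in c-JunΔLysM, against -2.77, -3.34 and -3.23 in wild-type (difference -0.88, adjusted p = 0.293 in limma), and Itgav, the αv partner of β3, with a difference of -0.55 (adjusted p = 0.325). Car2, the carbonic anhydrase that supplies protons, read -1.13 and -2.35 in c-JunΔLysM, against -0.96, 1.25 and -0.03 in wild-type. Its difference of -1.83 was -0.17 within slide 1 and -2.96 within slide 2. The membrane protease gene Mmp14 differed by -1.16 with separated groups. Mmp9 differed by -1.24, the proton pump gene Tcirg1 by -0.37 and the chloride channel gene Clcn7 by -0.42, all with overlap.

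Among 19 measured partners of macrophage fusion, 3 were higher and 2 lower, 4 were separated each way, and the median was -0.22. It was 0.04 within slide 1 and -0.23 within slide 2, and leaving out 1 array gave -0.13 without wild-type 11 and -0.36 without c-JunΔLysM 1. The 3 higher genes were Csf1, the macrophage growth factor, at 1.19 and 1.15 in c-JunΔLysM, against 0.44, 0.26 and 0.62 in wild-type (difference 0.73, adjusted p = 0.259 in limma), Slc1a5, an amino acid transporter that is the receptor of syncytin-1 in humans (difference 0.76), and the tetraspanin Cd9. Cd9 read 5.93 and 5.99 in c-JunΔLysM, against 5.29, 4.48 and 5.30 in wild-type (difference 0.94), and the related tetraspanin Cd81 differed by 0.71. Of the 2 lower genes, Cd44, the hyaluronan receptor, read 3.72 and 3.46 in c-JunΔLysM, against 4.13, 4.53 and 4.62 in wild-type (difference -0.84, adjusted p = 0.285). The other, the E-cadherin gene Cdh1, was well above background on only 1 array of each group, so most of its values are not measured levels and no size is given. The receptor pair of self recognition differed by -0.44 for Sirpa, with separated groups, and by -0.20 for Cd47, with overlap. The brightest probe of Csf1r, the receptor of Csf1, had outlier spots on 2 arrays and was not tested.

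**Figure D4:**
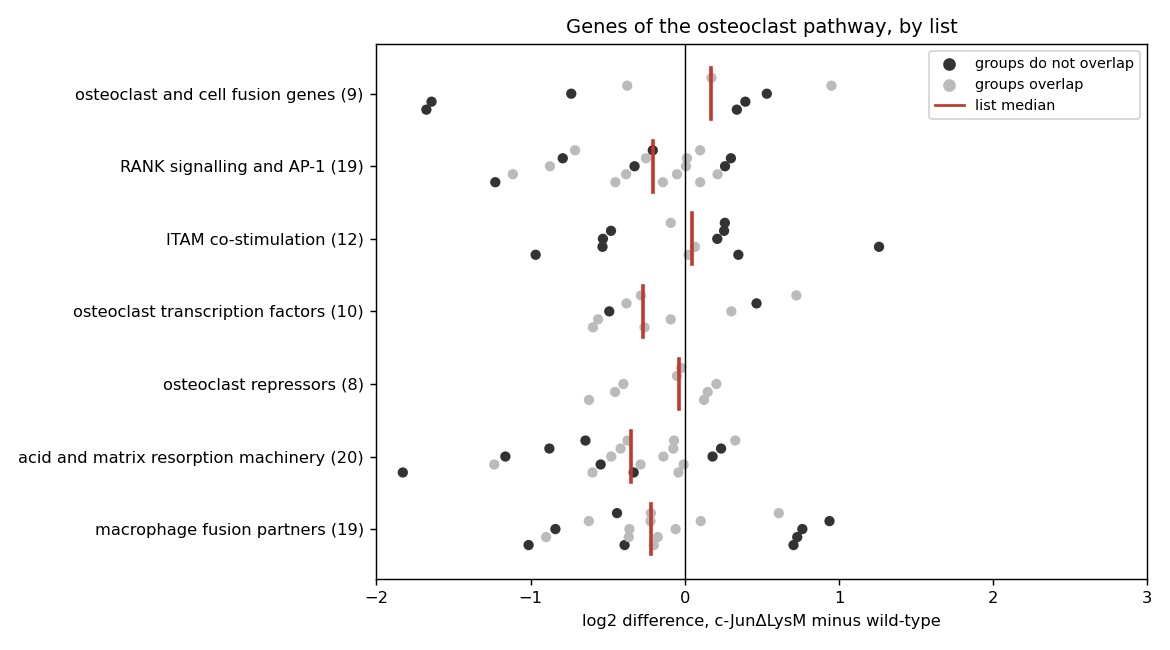
Difference c-JunΔLysM minus wild-type in log2 (horizontal axis) for each measured gene of the members and of the 6 pathway lists, with each list's median as a bar. The list medians lie between -0.35 for the resorption genes and 0.17 for the members, and genes of each list lie on both sides of 0.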

How the data were processed

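Total RNA (50 ng) was labelled with Cy3 and hybridised to 1-colour Agilent arrays, per the labels' protocols. The deposited scanner files hold spot intensity, background-subtracted by Feature Extraction 11.5.1.1, per the file headers, with 0 or 1 flags of another kind for spots above background, saturated or outlying. The authors' deposited series table holds log2 means per group for 1709 probes (medians 1.19 in c-JunΔLysM and 0.54 in wild-type) over a baseline per probe that is unknown, so only its column difference was used. That difference matched the one computed here within 0.01 for 1703 probes, with a largest gap of 0.00043. The remaining probes had no difference here to compare. The header of the deposited table names 1 wild-type array that is not used here, and the differences matched without it.

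Log2 intensity minus log2 of each array's 75th percentile over its 59305 non-control spots was the main value. Spots flagged as outliers were left out, which dropped 247 probes, and spots of 1 probe were averaged (432 probes). A probe was tested if 2 or more of the 5 arrays showed it well above background, which left 32565. Symbols came from matching transcripts to RefSeq's GRCm38.p6 table (28026 probes named, 27655 not). Build mm9 underlies the arrays, so no coordinates are given for probes.

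The test was limma's moderated linear model (version 3.58.1, R 4.3.3), 2-sided and without covariates. Its p-values were adjusted over the whole table by Benjamini and Hochberg's method, at a threshold of 0.05. The fit was run on simulated data with independent noise per probe, only to check that it returned an added difference. That simulation held no slide, sex or cell mixture, so it does not show how reliable calls on these arrays are. No exact permutation test was run, since 2 against 3 arrays allow no p below 0.1. Should the samples not be separate mice, the p-values reflect the spread between samples alone. Precision is limited by the number of arrays.

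All members are named with all probes, each gene headed by its brightest one. Genes of the pathway and marker lists were read by their brightest probe alone. Of the pathway lists, genes named by choice of their role and up to 4 with the smallest p are given, and for likeness the 2 nearest genes of the 2 members with the widest spread. Members and lists were chosen with earlier results of these data known. Alternatives were other scalings, background corrections and filters, the slide as a block, values within a slide and each array left out.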

Additional observations from a re-analysis of the deposited data

How the results depend on the processing

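No paired analysis was possible because the groups share no replicate numbers. No member probe passed the adjusted threshold under any alternative. The count over all probes was 0 throughout, except 223 with median centring, which moved the median of all probes to 0.12, against -0.09 with the 75th percentile. The share of probes at unadjusted p under 0.05 that were higher in c-JunΔLysM was 46.0%, but 61.2% with quantile normalization and 79.2% with median centring. Their number, 4022, was 2173 within slide 2 and 1940 to 5318 with 1 array left out. Probes with separated groups, 11011, were 22995 within slide 2 and 14363 to 19919 with 1 array left out, where fewer arrays separate more easily. The members' median difference, 0.17, was -0.10 without the filter on dim probes, where Calcr enters, and 0.38 with median centring. It was 0.36 within slide 1, -0.11 within slide 2, and -0.0404 to 0.24 with 1 array left out. Dcstamp, Ocstamp and Tnfrsf11a stayed lower, and Oscar, Nfatc1 and Acp5 higher, under every alternative run. With 1 array left out Dcstamp ranged from -2.10 to -1.25, Ocstamp from -2.13 to -1.04 and Tnfrsf11a from -0.83 to -0.65. Directions turned for Ctsk (0.52 within slide 1), Atp6v0d2 (-0.11 within slide 2, and -0.0404 to 0.54 with 1 array left out, the lowest without wild-type 5) and Itgb3 (-2.71 on its other probe). With median centring Ocstamp and the brighter Acp5 probe overlapped, and with normexp that Acp5 probe and the dimmer Atp6v0d2 probe did. Median centring moved the pathway medians up with the median of all probes, to 0.00297 for RANK signalling, 0.26 for ITAM co-stimulation, 0.17 for the repressors, -0.06 for the transcription factors, -0.14 for the resorption genes and -0.00916 for the fusion partners; the repressors also turned with quantile normalization and with the percentile over detected probes, to 0.06 and 0.02. The causes of these changes were not tested. Normexp took the median spot signal in place of the mean, a choice made after seeing the data, and gave the smallest adjusted p of any member probe, 0.0674, for the dimmer Nfatc1 probe, whose range was 0.0674 to 0.794. Dim probes such as Calcr are limited by signal over background.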

Other observations

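Syna, which encodes the fusion protein syncytin-A, was well above background on wild-type 11 alone and was not tested. It read -5.79 and -6.67 in c-JunΔLysM, against -5.04, -1.74 and -5.08 in wild-type. This gene was singled out after its values were seen.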
